A study of Mus musculus with 8 samples.

Results

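Axon guidance genes encode the secreted and membrane-bound cues that steer growing axons, and the receptors that read them. Members were all genes whose array name begins with Sema3 to Sema7, Plxna to Plxnd, Epha, Ephb, Efna or Efnb with a number, Robo or Ntn with a number, or Unc5a to Unc5d, together with Slit1 to Slit3, Nrp1 and Nrp2. The rule found 69 genes, measured by 89 of the 55681 probes, among 21912 named genes in all. They comprise 20 semaphorins, 9 plexins, 2 neuropilins, 8 ephrins, 14 Eph receptors, 3 Slits, 4 Robo receptors, 4 netrins and 4 Unc5 receptors. The remaining gene, Unc5cl, matched the rule by name and is not a netrin receptor.

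The cells were satellite cells, the stem cells that lie along muscle fibres and rebuild them, and their RNA was read on 1-colour Agilent arrays. They were sorted by flow cytometry for integrin alpha 7 and against CD31, CD45, CD11b and Sca1, which mark endothelial, blood and interstitial cells. The basal group was 4 samples from muscle in homeostasis, and the injured group was 4 samples from muscle 3 days after cardiotoxin, a venom component that kills fibres and sets off regeneration. All mice are labelled male C57BL/6, aged 3 months, and the array names carry WT, for wild type. No transgene or other treatment is named. The samples are labelled biological replicates, and the number of animals behind each is not stated.

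Semaphorins signal through plexins, which act on small GTPases and the actin skeleton, and most of the secreted class needs neuropilins as ligand-binding coreceptors. Ephrins are held on the cell surface, bind Eph receptor tyrosine kinases on a neighbouring cell, and can signal back into the cell that carries them. Slits bind Robo receptors, and netrins bind Dcc, neogenin and Unc5 receptors. In skeletal muscle the same families are known from motor innervation, from vessels and from the movement and differentiation of myogenic cells, and Sema3a is known as a product of satellite cells in regenerating muscle.

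All values below are log2 signals relative to the 75th percentile of the same array, in which a unit is a doubling, and are listed for replicates 1 to 4 in order. Between 50.1% and 56.7% of the 59305 non-control spots of an array exceeded background, and none was saturated. Across 10737 genes, which do not count as replicates, arrays correlated with a Pearson r of 0.989 to 0.996 within the injured group, 0.955 to 0.978 within the basal group and 0.833 to 0.923 between the groups. Each group was on a slide of its own, so injury and slide cannot be told apart. Xist, the RNA of the inactive X chromosome of females, read 6.37, 6.55 and 6.57 on injured arrays 2, 3 and 4 against 1.72 on injured array 1, although all mice are labelled male. On basal arrays 1 to 4 it read 3.85, 2.15, -1.12 and -4.97. The satellite cell marker Pax7 was above background on all 8 arrays and fell by 2.95 ± 0.21 after injury (adjusted p = 1.8e-05). Myog, the factor of differentiating myoblasts, rose by 4.09 ± 0.71 (adjusted p = 0.00129) and the proliferation marker Mki67 by 2.65 ± 0.42 (adjusted p = 8.25e-04), and the part of these changes of cell state in the members' differences was not tested. Of 14 endothelial markers, 12 were higher on basal arrays 1 and 2 than on basal arrays 3 and 4, Tek was lower there, and Kdr was mixed.

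After injury, guidance genes moved in both directions. Sema3a, Sema4b, Sema4d, the receptor Plxna1, both neuropilins, Efnb2 and Epha2 rose, while Ephb1, Plxna2, Slit3, Sema3b, Sema3g and all 3 tested netrins fell. To be tested, a gene's brightest probe had to exceed background on 3 or more arrays in either group, which 43 members met and 26 did not. Of the 43 tested, 11 were called higher, 16 were called lower and 16 were not called by limma at an adjusted p under 0.05. Leaving out single arrays ended the Nrp1 call for 6 of 8 arrays and the Ntn4 call for 6 of 8. In the authors' deposited table Ntn1 had the opposite sign, and Ephb1, Plxna2, Slit3, Sema3g, Epha2 and Ntn4 kept their direction without being called. Together 62.8% of the tested members were called, against 60.1% of all 13728 genes tested. The share called higher was 25.6% against 35.4% of all genes, and the share called lower was 37.2% against 24.7%. The median difference, injured minus basal, was -0.15 over the tested members and 0.17 over all genes tested.

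The fitted difference was 1 or more in size for 9 of the higher and 8 of the lower members, or 39.5% of those tested, where the share over all genes was 34.6%. For 4 of these, Sema4d, Sema3g, Robo3 and Robo4, 1 group was above background on no array, so that the fold is known only as a lower bound. Such a bound allows for the background alone and not for the spread between arrays. The bounds of Robo3 and Sema3g are under 1 on the log2 scale, which leaves 8 higher and 7 lower members with a difference or bound of 1 or more. The 4 arrays of each group did not overlap for 9 members that were higher and 14 that were lower, or 20.9% and 32.6% of those tested. Over all genes these shares were 33.9% and 23.2%, and 57.1% in both directions together. Counted by role, 6 of 23 tested ligands were higher and 8 lower, and 5 of 20 tested receptors were higher and 8 lower. Among ligands, the secreted ones had 1 of 9 higher and 6 lower, and the membrane-bound ones had 5 of 14 higher and 2 lower. These groups were not tested against each other or against all genes, of which 35.4% were called higher and 24.7% lower. Fewer cells of a type and less RNA per cell cannot be told apart in these bulk samples.

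The sizes of the differences of dim members depend on the background correction and its offset. Normexp correction started from the mean spot signal and its background, and a chosen offset of 50 was added to each signal. Such an offset by itself makes the differences of dim probes smaller. With this correction and offset the difference was smaller by more than 1.5 times for 16 of the 27 called members, while 25 kept their call and direction. Nrp1 at 0.35 (adjusted p = 0.0637) and Robo3 at 0.21 (adjusted p = 0.0556) lost theirs. Among the receptors, Nrp2 was 0.89, Epha2 1.27, Plxna2 -1.05, Ephb1 -1.44 and Robo4 -1.12 with this correction. Among the ligands, Sema3a was 1.37, Sema4b 1.23, Sema4d 0.43, Sema3g -0.36, Slit3 -0.89, Ntn5 -0.58, Ntn1 -0.34, Ntn4 -0.25 and Efna4 0.31. The values and bounds given below are those without normexp correction and its offset.

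**Figure D1:**
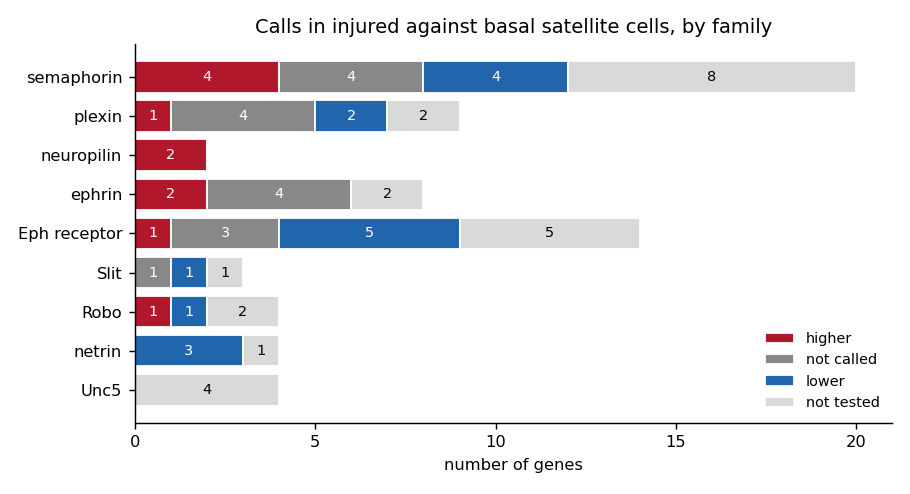
Number of genes (horizontal axis) of each guidance family (vertical axis) called higher, not called, called lower or not tested in injured against basal satellite cells. Semaphorins were split evenly between 4 higher and 4 lower, all 3 tested netrins were lower, and no Unc5 receptor was bright enough to be tested.

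**Figure D2:**
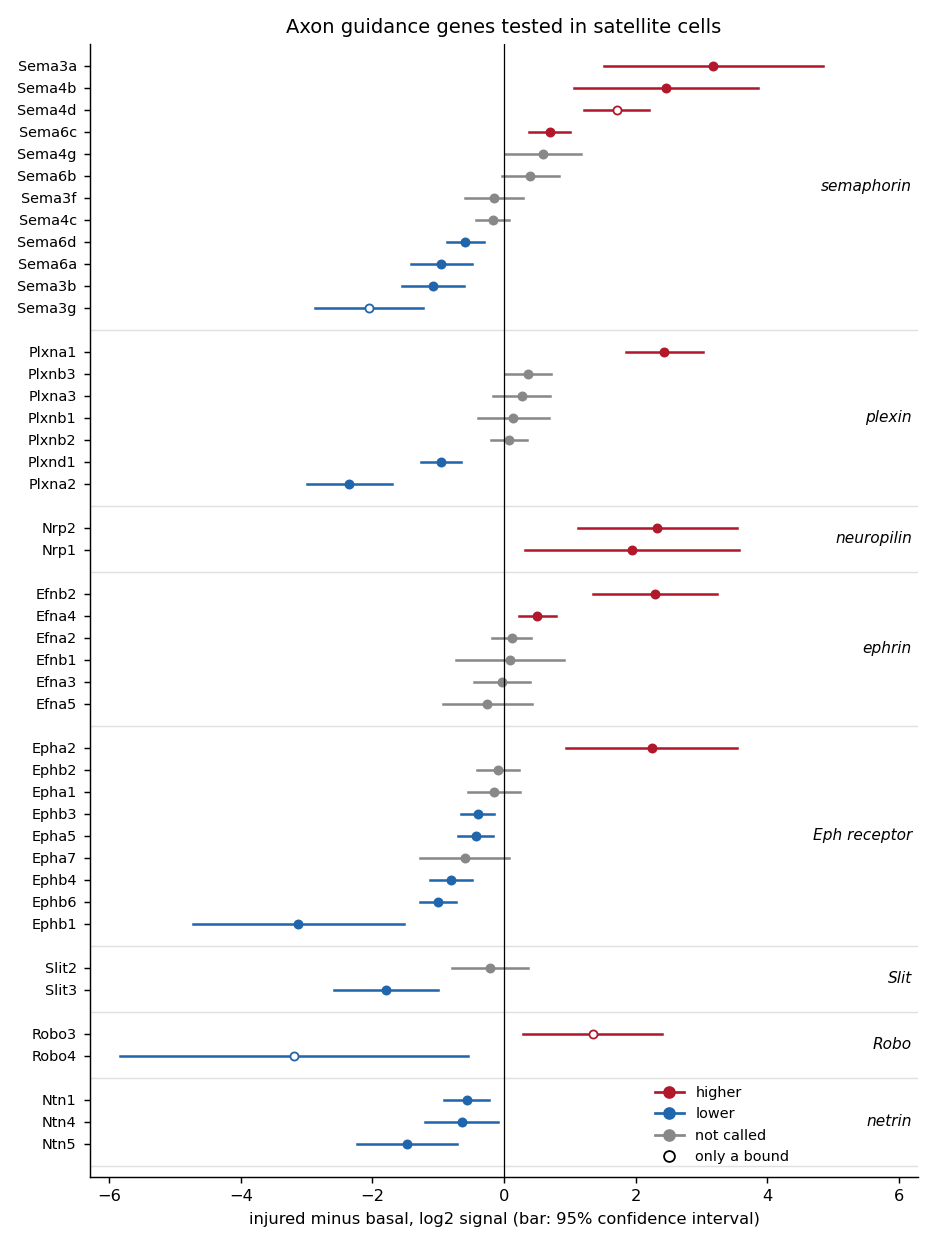
Injured minus basal difference in log2 signal (horizontal axis; points, with bars for the 95% confidence interval of the limma fit) for the 43 tested genes, grouped by family on the vertical axis, with n = 4 arrays per group. Open points are the 4 called genes for which only a bound is known. Among the filled points, differences run from -3.12 for Ephb1 to 3.18 for Sema3a, with members of most families on both sides of 0.

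Markers of other cells in muscle also differed between the groups. Summed over 9 markers of fibro-adipogenic progenitors, the connective tissue cells of muscle, the linear signal in units of the 75th percentile was 56.5 to 85.6 on basal arrays and 7.05 to 9.77 on injured arrays. Col3a1 made up 57.3% to 86.7% of that sum, and without it the sum was 16.8 to 31.5 basal and 0.968 to 1.64 injured. Most of this rest on basal arrays was Dcn, which differed by -7.79 ± 0.595 on the log2 scale. Of the 5 tested markers of these progenitors, 4 were lower, while their defining marker Pdgfra was above background on no array. The sum over 11 pericyte and smooth muscle markers was 1176 to 1373 basal and 985 to 1101 injured, with 7 of 11 lower. The bright Mcam probe made up 92.2% to 94.9% of that sum, and without it the sum was 62.0 to 102 basal and 50.9 to 76.6 injured. Most of this rest was Des, which differed by -0.27 ± 0.22 and was not called. Rgs5, Abcc9, Pdgfrb and Kcnj8 were above background on no injured array, and Rgs5 was at least 18.2-fold lower there. For 10 Schwann cell markers the sum was 14.0 to 44.3 basal and 8.98 to 12.7 injured. Ngfr made up 10% to 70.7% of it, and without Ngfr it was 7.03 to 39.9 basal and 2.99 to 5.07 injured. Of the 7 tested, 4 were lower and 1 higher, and Cdh19 was above background on no array.

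The endothelial sum over 14 markers was 23.8 to 58.3 basal and 10.7 to 13.4 injured. Kdr made up 13.1% to 77.7% of it, and without Kdr it was 17.6 to 50.7 basal and 2.54 to 3.40 injured. On basal arrays 3 and 4 most of that rest was Tek, at 4.33 and 3.97 on the log2 scale. Tek read -1.24 to -0.44 on injured arrays, so the gap between these 2 basal arrays and the injured arrays rested on Tek. Of the 9 tested, 2 were lower and 1 higher, and Erg was above background on no array. The leukocyte sum over 12 markers was 474 to 543 basal and 496 to 587 injured, with 3 of 9 higher and 1 lower. Of that sum 89.8% to 92.6% was the bright Itgam probe, and without it the sum was 46.5 to 51.2 basal and 40.5 to 43.2 injured. Most of this rest was Csf1r, which differed by -0.30 ± 0.11, while the 3 markers called higher were dimmer. The sum over 8 myofibre markers was 7.04 to 12.6 basal and 17.9 to 44.1 injured, with 1 of 3 tested higher and 1 lower. The sum over 10 satellite cell markers was 151 to 224 basal and 136 to 174 injured, with 3 higher and 5 lower. The part of these cells in the members' differences was not tested.

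Among the secreted semaphorins, Sema3a rose and Sema3b and Sema3g fell. Sema3a, which repels axons through Nrp1 and class A plexins, read -0.99, -5.08, -2.73 and -2.74 on basal arrays and -0.33, 0.64, 0.49 and 0.41 on injured arrays (probe at chr5:13473453-13473512, mm9). Every injured array was above every basal array, and basal array 2 was at the level of the background. The difference was 3.18 ± 0.73 (SE, n = 4 arrays per group; limma adjusted p = 0.00537), the largest rise among the members' brightest probes. The other Sema3a probe was at background on all basal arrays and above it on 3 injured arrays.

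Sema3b, a secreted semaphorin that also binds neuropilins, read 1.85, 2.15, 2.38 and 2.78 on basal arrays and 1.16, 1.06, 1.15 and 1.48 on injured arrays (chr9:107500686-107500745, mm9). The groups did not overlap, and it fell by 1.08 ± 0.21 on the log2 scale (adjusted p = 0.00213). Sema3g, a ligand of Nrp2 known from endothelium, read -3.27, -2.35, -1.82 and -2.05 on basal arrays and -4.12, -4.87, -4.87 and -3.85 on injured arrays. It was above background on 3 basal arrays and on no injured array, so it is at least 1.77-fold lower after injury (adjusted p = 0.00134). The other Sema3g probe was too dim to be tested and read 1.98 on basal array 1 against -2.24, -5.10 and -4.95 on the other basal arrays. Sema3f was not called, with a difference of -0.15 and a 95% confidence interval of -0.59 to 0.29. The other secreted semaphorins, Sema3c, Sema3d and Sema3e, were above background on none of the 8 arrays.

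The membrane-bound semaphorins gave 3 rises and 2 falls among 8 tested. Sema4b read -2.35, -0.39, -3.78 and -1.66 on basal arrays and -0.04, 0.53, 0.53 and 0.65 on injured arrays (chr7:87371351-87371410, mm9), without overlap. It rose by 2.46 ± 0.61 (adjusted p = 0.00794), and the basal arrays spread far more widely than the injured ones. Sema4d, also known as CD100, is a ligand of Plxnb1 that was described on lymphocytes. It read -2.999, -3.38, -3.56 and -3.98 on basal arrays, where it was not above background, and -1.98, -1.58, -1.57 and -1.93 on injured arrays (chr13:51796617-51796676, mm9). That makes it at least 2.58-fold higher after injury (adjusted p = 2.7e-04). Among the 9 leukocyte markers tested, Laptm5, Tyrobp and Cd3e were called higher as well, while Csf1r was called lower, at -0.30 ± 0.11 (adjusted p = 0.0402). The pan-leukocyte marker Ptprc differed by -0.18 ± 0.37 (adjusted p = 0.698) and was not called. Itgam, Cd68, Adgre1 and Fcer1g were not called either. The part of leukocytes in the Sema4d signal was not tested.

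The class 6 semaphorins are transmembrane ligands of class A plexins. Sema6c read 3.34, 3.23, 3.24 and 3.21 on basal arrays and 3.72, 3.94, 3.91 and 4.23 on injured arrays, a rise of 0.69 ± 0.13 (adjusted p = 0.00231). Sema6a, a ligand of Plxna2 and Plxna4, read 4.40, 4.39, 4.94 and 5.09 on basal arrays and 3.56, 3.62, 4.06 and 3.76 on injured arrays. It fell by 0.95 ± 0.20 (adjusted p = 0.00377), and neither gene's groups overlapped. Sema6d, a ligand of Plxna1, read 9.04, 9.08, 9.32 and 9.25 on basal arrays and 8.57, 8.59, 8.44 and 8.71 on injured arrays by its brightest probe, a fall of 0.59 ± 0.12 (adjusted p = 0.00325). Its other probe fell from a basal mean of 1.93 to an injured mean of -0.06, by 1.995 ± 0.16 (adjusted p = 3.8e-05). Both probes fell, with sizes that differ, and which of them measures the transcript was not tested.

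The Sema4c probe, among the brightest of the members, read between 10.65 and 11.00 on all 8 arrays and was not called, at -0.17 with an interval of -0.42 to 0.08. Whether so bright a probe measures the Sema4c transcript was not tested. Sema4g differed by 0.59 (interval 0.01 to 1.17; adjusted p = 0.0741) and Sema6b by 0.40 (interval -0.03 to 0.84; adjusted p = 0.0984), and neither was called. Sema4a, Sema4f, Sema5a, Sema5b and Sema7a were not tested. Of these, Sema7a, a lipid-anchored semaphorin, was at background on all basal arrays, between -5.26 and -4.86, and read -1.26, -1.99, -2.62 and -3.05 on injured arrays. Its injured values were above background on 2 arrays, and every one of them was higher than every basal value.

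The receptors of this family showed opposite differences within class A. Plxna1, which transduces the signal of secreted semaphorins, read 0.21, 0.33, -0.60 and -0.75 on basal arrays and 2.33, 2.15, 2.30 and 2.16 on injured arrays (chr6:89266290-89266322, mm9). It rose by 2.43 ± 0.26, or 5.41-fold (adjusted p = 1.1e-04), with the injured arrays close to each other. Plxna2, the receptor of Sema6a, read -0.16, -0.11, 0.57 and 0.06 on basal arrays and -2.57, -2.63, -2.37 and -1.46 on injured arrays (chr1:196642958-196643017, mm9). It fell by 2.35 ± 0.28 on the log2 scale (adjusted p = 2.1e-04), and neither gene's groups overlapped. Plxna1 and Plxna2 thus changed in opposite directions.

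Plxnd1, the receptor of Sema3e, read 3.13, 3.30, 3.12 and 3.07 on basal arrays and 2.12, 2.06, 2.13 and 2.47 on injured arrays. It fell by 0.96 ± 0.13 (adjusted p = 4.4e-04), and its other probe fell by 1.03 ± 0.17 (adjusted p = 9.8e-04). Plxna3 and the class B plexins were not called. Plxna3 differed by 0.27 (interval -0.17 to 0.70), Plxnb1 by 0.14 (-0.39 to 0.68), Plxnb2 by 0.08 (-0.20 to 0.35) and Plxnb3 by 0.37 (0.02 to 0.72; adjusted p = 0.0643). Plxna4 and Plxnc1, the receptor of Sema7a, were too dim to be tested.

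Both neuropilins were called higher. Nrp2 read -1.09, -1.99, -3.24 and -3.75 on basal arrays and -0.24, 0.17, -0.58 and -0.09 on injured arrays (chr1:62843298-62843357, mm9). The groups did not overlap, 2 of the basal arrays were above background, and the rise was 2.33 ± 0.53 (adjusted p = 0.00505). The other Nrp2 probe gave 2.33 ± 0.53 as well (adjusted p = 0.00541). Nrp1, the coreceptor of Sema3a and of vascular endothelial growth factor, read -1.69, -3.24, -5.29 and -4.96 on basal arrays and -2.12, -1.64, -1.73 and -1.89 on injured arrays (chr8:131026650-131026709, mm9). Basal array 1 lay within the injured values, and it was the only basal array above background. The Nrp1 difference was 1.95 ± 0.71 (adjusted p = 0.0412), and the call was lost without basal array 3, basal array 4 or any of the injured arrays, with adjusted p of 0.067 to 0.101.

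**Figure D3:**
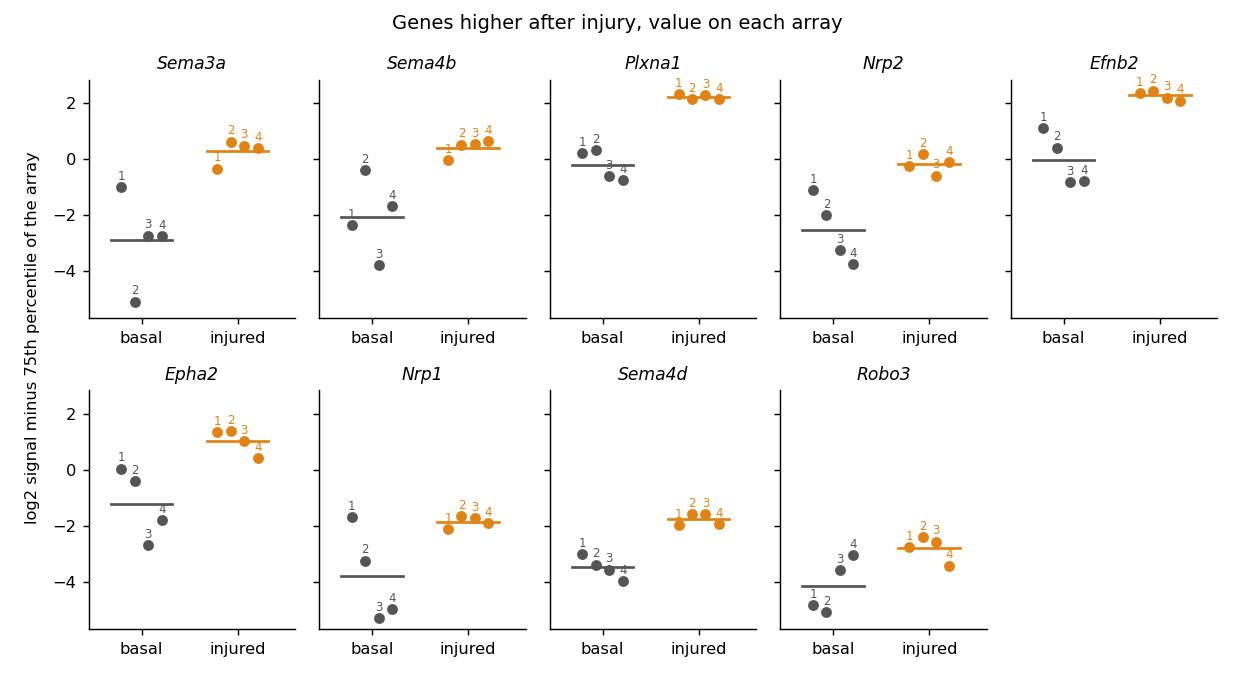
Log2 signal minus the 75th percentile of the array (vertical axis) for the 9 genes called higher with a fitted difference of 1 or more, Robo3 and Sema4d with no basal array above background; points are arrays with their replicate number, and lines are the means of the 4 basal (grey) and 4 injured (orange) arrays. The injured arrays lie close together, while basal arrays spread widely, and only for Nrp1 and Robo3 do the groups overlap.

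Among ephrins and their receptors, 2 ligands and Epha2 rose and 5 Eph receptors fell. Efnb2 is a transmembrane ephrin that binds Ephb4, among others. Its signal was 1.11, 0.42, -0.82 and -0.77 on basal arrays and 2.38, 2.46, 2.20 and 2.10 on injured arrays (chr8:8620426-8620485, mm9). The groups did not overlap, and the rise was 2.30 ± 0.41, or 4.92-fold (adjusted p = 0.00154). The other Efnb2 probe rose by 3.44 ± 0.47 (adjusted p = 4.4e-04). Ephb4 fell, from 3.25, 3.61, 3.56 and 3.41 on basal arrays to 2.43, 2.63, 2.77 and 2.78 on injured arrays, by 0.80 ± 0.14 (adjusted p = 0.00127). Its other probe fell by the same 0.80 ± 0.20 (adjusted p = 0.00955), so ligand and receptor moved in opposite directions by each of their probes.

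The bases before the start sites are shown for the ephrin system, as this ligand and these receptors changed in opposite directions. They are the 250 bases before the RefSeq start of each gene on GRCm38.p6, written along the gene from 5′ to 3′. Capitals mark the GC box GGGCGG, the CCAAT box CCAAT, the cAMP response element TGACGTCA and the TATA box TATAAA, searched on both strands. The E-box CAGCTG, the kind that myogenic factors bind, was searched in the same way and is in none of the 4 sequences. The regions are chr8:8661243-8661492 (minus strand) for Efnb2, chr4:141300971-141301220 (plus strand) for Epha2, chr5:137349859-137350108 (plus strand) for Ephb4 and chr9:102354694-102354943 (minus strand) for Ephb1. Efnb2 and Epha2 were higher after injury, and Ephb4 and Ephb1 were lower.
Efnb2: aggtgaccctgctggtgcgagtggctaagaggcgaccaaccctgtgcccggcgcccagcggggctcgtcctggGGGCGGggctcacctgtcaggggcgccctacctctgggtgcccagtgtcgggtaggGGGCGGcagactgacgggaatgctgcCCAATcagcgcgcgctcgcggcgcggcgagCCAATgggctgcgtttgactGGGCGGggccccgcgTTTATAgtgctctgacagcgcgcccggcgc
Epha2: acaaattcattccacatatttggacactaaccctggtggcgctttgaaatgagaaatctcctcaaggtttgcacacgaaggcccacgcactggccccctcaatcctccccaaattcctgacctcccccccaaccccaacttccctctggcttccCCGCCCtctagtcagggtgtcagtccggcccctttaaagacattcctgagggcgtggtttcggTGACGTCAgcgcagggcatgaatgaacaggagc
Ephb4: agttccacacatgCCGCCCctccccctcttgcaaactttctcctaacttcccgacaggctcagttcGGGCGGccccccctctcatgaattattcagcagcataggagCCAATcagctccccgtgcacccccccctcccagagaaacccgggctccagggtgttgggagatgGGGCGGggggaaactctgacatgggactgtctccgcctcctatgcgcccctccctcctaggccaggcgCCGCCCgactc
Ephb1: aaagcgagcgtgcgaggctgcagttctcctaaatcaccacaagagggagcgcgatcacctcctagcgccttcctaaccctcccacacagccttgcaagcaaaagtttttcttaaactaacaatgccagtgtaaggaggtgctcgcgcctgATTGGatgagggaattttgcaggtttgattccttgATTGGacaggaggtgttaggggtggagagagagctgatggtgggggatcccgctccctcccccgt

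The Efnb2 sequence holds 3 GC boxes, 2 CCAAT boxes and a TATA box on the opposite strand near its end. The Epha2 sequence holds 1 GC box and, close to the start, the cAMP response element. Ephb4 has 4 GC boxes and 1 CCAAT box, and Ephb1 has 2 CCAAT boxes and no GC box. Over all 32851 promoters of the table in the same window, 32.7% hold the GC box, 33.8% the CCAAT box, 12.4% the TATA box, 13.0% the CAGCTG E-box and 1.55% the cAMP response element. Of the 76 promoters listed for 60 of the 69 members, 54 hold the GC box, 21 the CCAAT box, 2 the TATA box, 12 the E-box and 1 the cAMP response element. No marked match overlaps another in these 4 sequences, and a match describes the letters only.

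Efna4, a lipid-anchored ephrin of the A class, read 0.41, 0.19, 0.14 and 0.27 on basal arrays and 0.60, 0.76, 0.93 and 0.76 on injured arrays. The groups did not overlap, and the rise was 0.51 ± 0.12 (adjusted p = 0.0071). Efna2, Efna3, Efna5 and Efnb1 were not called, with differences of -0.25 to 0.12 and intervals from -0.93 to 0.92. Efna1 and Efnb3 were not tested. Efnb3, the remaining transmembrane ephrin, was above background on 2 basal arrays at -1.81 and -1.79, and on the injured arrays it was at background, between -5.15 and -4.54.

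Epha2 was the only Eph receptor called higher among the 9 tested. It read 0.05, -0.38, -2.68 and -1.79 on basal arrays and 1.35, 1.39, 1.02 and 0.42 on injured arrays (chr4:140885139-140885198, mm9). The groups did not overlap, and basal arrays 1 and 2 lay nearest to the injured arrays. It rose by 2.25 ± 0.57 (adjusted p = 0.00858). Among the other A-class receptors, Epha1 differed by -0.15 (interval -0.54 to 0.25) and Epha7 by -0.60 (interval -1.27 to 0.08), and neither was called. Epha3, Epha4, Epha6, Epha8 and Epha10 were not tested.

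Of the 5 B-class receptors, 4 were called lower, where 24.7% of all genes tested were. Under quantile normalization 3 were, as Ephb3 was not called. The fifth B-class receptor, Ephb2, differed by -0.09 (interval -0.40 to 0.22). Ephb1 read 0.52, 0.23, 1.09 and 0.48 on basal arrays and -1.42, -4.95, -1.90 and -1.90 on injured arrays (chr9:101824549-101824608, mm9). The groups did not overlap, and injured array 2, where the probe was at background, stood far below the other injured arrays. It fell by 3.12 ± 0.70 on the log2 scale (adjusted p = 0.00486). Ephb6, a family member without kinase activity, read 0.87, 0.62, 0.75 and 0.89 on basal arrays and -0.16, -0.28, -0.14 and -0.31 on injured arrays, a fall of 1.00 ± 0.12 (adjusted p = 1.8e-04). The other Ephb6 probe did not move with it, with a difference of 0.07 ± 0.19 (adjusted p = 0.76). The 2 probes therefore disagree, and the Ephb6 call rests on the brighter.

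Ephb3 and Epha5 were read by very bright probes. Ephb3 read 10.83, 10.79, 10.85 and 10.70 on basal arrays and 10.38, 10.41, 10.30 and 10.47 on injured arrays, a fall of 0.40 ± 0.11 (adjusted p = 0.0112). Epha5 read 10.34, 10.41, 10.44 and 10.19 on basal arrays and 9.90, 9.94, 9.82 and 9.997 on injured arrays, a fall of 0.43 ± 0.11 (adjusted p = 0.0108). The other Epha5 probe was above background on no array, and Ephb3 has no other probe. Whether the bright probes of Ephb3 and Epha5 measure these transcripts was not tested. Under quantile normalization neither was called, at -0.16 for Ephb3 (adjusted p = 0.22) and -0.24 for Epha5 (adjusted p = 0.0982). In the authors' deposited table no B-class receptor was called lower, and Epha5 differed by 0.05 in the opposite direction.

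Slit3 fell among the ligands of Robo receptors. It read -1.24, 0.24, -0.85 and 0.30 on basal arrays and -1.999, -2.29, -2.37 and -2.08 on injured arrays (chr11:35521559-35521618, mm9). Every injured array was below every basal array, and the fall was 1.80 ± 0.35 on the log2 scale (adjusted p = 0.00226). Slit2 was not called, at -0.21 with an interval of -0.79 to 0.36, and Slit1 was not tested. Robo1 was above background on 2 basal arrays and no injured array, and Robo2 on none of the 8 arrays, so neither was tested.

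The 2 Robo receptors tested are neighbours on chromosome 9 and had opposite differences, with groups that overlap in both. Robo3, which in neurons governs crossing of the midline, read -4.82, -5.08, -3.57 and -3.03 on basal arrays, where it was not above background, and -2.74, -2.38, -2.56 and -3.41 on injured arrays (chr9:37224357-37224416, mm9). It is at least 1.32-fold higher after injury (adjusted p = 0.0327). Robo4, the Robo receptor of endothelium, read 0.55, -0.30, -5.05 and 0.70 on basal arrays and -4.79, -4.22, -3.64 and -4.22 on injured arrays (chr9:37221547-37221606, mm9). It was above background on 3 basal arrays and no injured array, and is at least 4.49-fold lower after injury (adjusted p = 0.0403). Without basal arrays 1 and 2 neither Robo receptor was called, with fitted differences of 0.53 (adjusted p = 0.18) for Robo3 and -2.04 (adjusted p = 0.237) for Robo4. Leaving out single arrays also ended the Robo3 call for 5 of 8 arrays and the Robo4 call for 7 of 8.

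Robo4 was set beside the endothelial markers because it is known from that cell type. Pecam1, which encodes the CD31 used to remove endothelial cells in the sort, read 3.20, 2.87, -2.20 and -3.22 on basal arrays and -3.11 to -1.82 on injured arrays. Ptprb read 3.47, 2.97, -5.21 and -5.05 on basal arrays and -5.31 to -3.12 on injured arrays, and Cdh5 was above background on basal arrays 1 and 2 alone. Over the whole list, 13 of 14 markers were lower on basal array 4 than on basal arrays 1 and 2, where Robo4 read 0.70 against 0.55 and -0.30. The exception was Tek, an endothelial receptor kinase, which read 3.50, 3.13, 4.33 and 3.97 on basal arrays and -1.24 to -0.44 on injured arrays, a fall of 4.69 ± 0.29 (adjusted p = 9.8e-06). Kdr, a receptor of vascular endothelial growth factor, varied little on basal arrays, from 2.63 to 2.93, and was called higher by 0.39 ± 0.12 (adjusted p = 0.0223). The part of endothelial cells in the Robo4 difference was not tested.

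**Figure D4:**
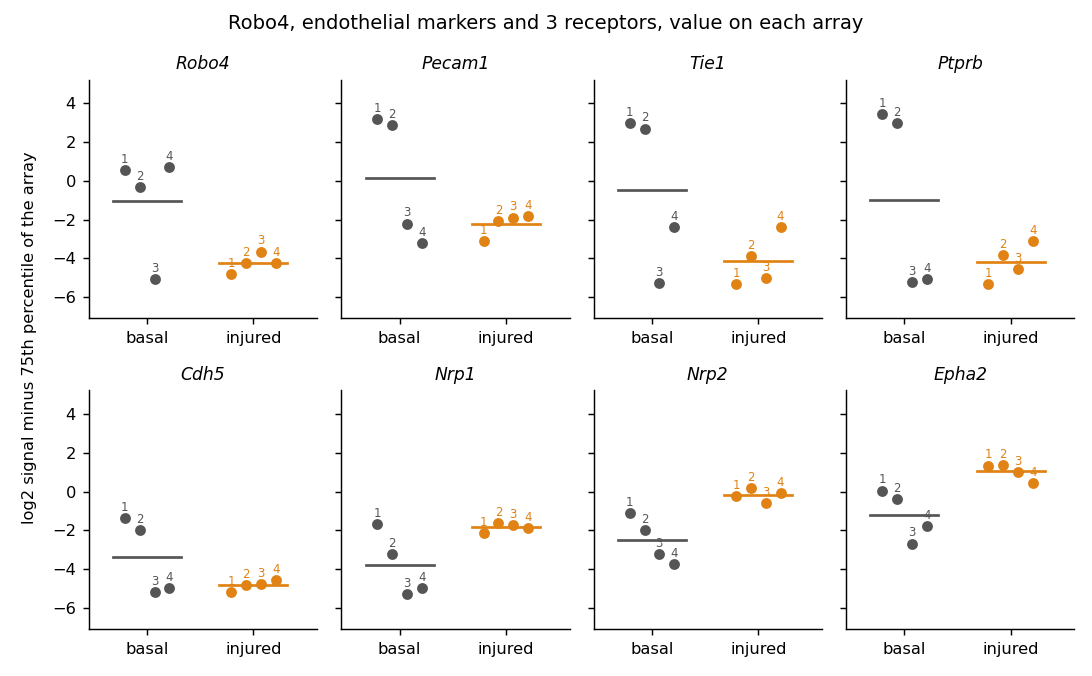
Log2 signal minus the 75th percentile of the array (vertical axis) of Robo4, the endothelial markers Pecam1, Tie1, Ptprb and Cdh5, and the receptors Nrp1, Nrp2 and Epha2; points are arrays with their replicate number, and lines are group means. These 4 of the 14 endothelial markers are high on basal arrays 1 and 2 alone, Robo4 is high on basal arrays 1, 2 and 4, and Nrp1, Nrp2 and Epha2 read higher on basal arrays 1 and 2 than on basal arrays 3 and 4.

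All 3 netrins tested were called lower, where 24.7% of all genes tested were. Ntn1, the secreted ligand of Dcc and Unc5 receptors, read 0.11, 0.38, 0.30 and 0.46 on basal arrays and -0.33, -0.24, -0.48 and 0.05 on injured arrays. It fell by 0.56 ± 0.15 without overlap (adjusted p = 0.0109), while its other probe gave -0.40 ± 0.18 and was not called (adjusted p = 0.0862). Ntn5 read -1.40, -1.02, -0.19 and -0.11 on basal arrays and -1.82, -2.38, -2.62 and -1.78 on injured arrays (chr7:52947753-52949386, mm9), a fall of 1.47 ± 0.33 without overlap (adjusted p = 0.0048). Ntn4, a netrin of basement membranes, overlapped between the groups and differed by -0.64 ± 0.24 (adjusted p = 0.0474). The Ntn4 call was lost when basal array 2, 3 or 4, or injured array 1, 2 or 4, was left out, with adjusted p of 0.0792 to 0.12. In the authors' deposited table Ntn1 had the opposite sign, at 0.64 (adjusted p = 0.35).

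Ntn3 was above background on 2 basal arrays, at -1.79 and -1.91, and on no injured array, and was not tested. The Unc5 receptors, which mediate repulsion by netrins, were dim throughout. Unc5a was above background on 2 basal arrays and 1 injured array, Unc5b on 1 injured array, and Unc5c and Unc5d on none. The netrin receptors Dcc and Neo1, named after their values were seen, were both above background on all 8 arrays. Dcc differed by -0.32 ± 0.13 (adjusted p = 0.0634) and Neo1 by -0.17 ± 0.19 (adjusted p = 0.48), and neither was called.

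**Figure D5:**
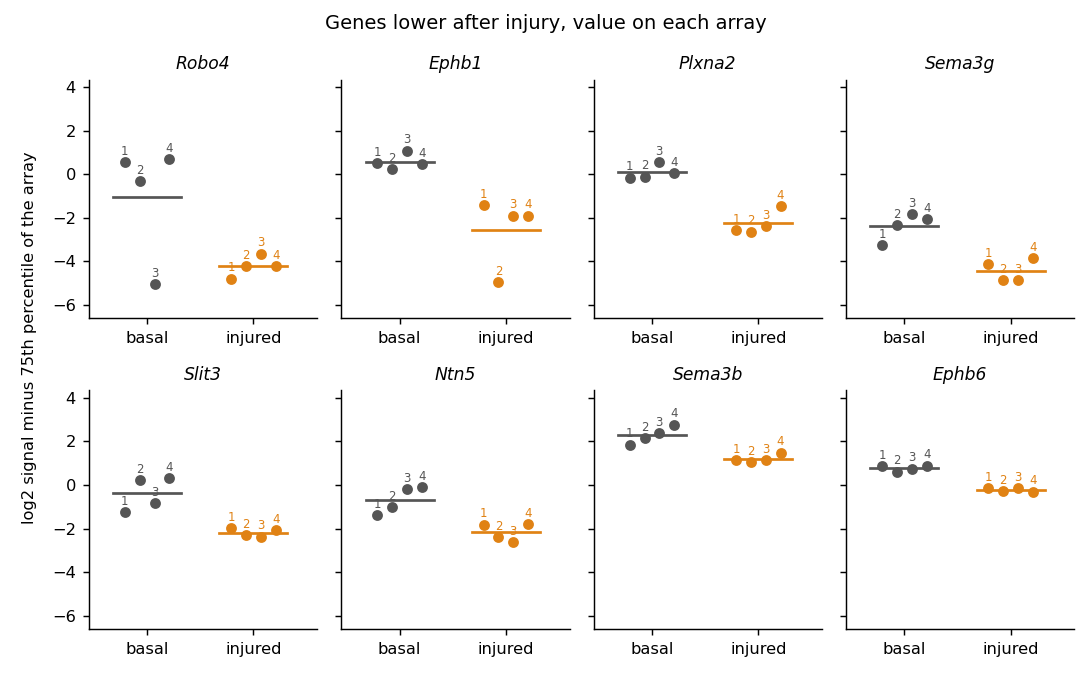
Log2 signal minus the 75th percentile of the array (vertical axis) for the 8 genes called lower with a fitted difference of 1 or more, Sema3g and Robo4 with no injured array above background; points are arrays with their replicate number, and lines are the means of the 4 basal (grey) and 4 injured (orange) arrays. For all but Robo4 every injured array is below every basal array, and for Ephb1 and Robo4 a single array stands far from the rest of its group.

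Basal arrays 1 and 2 lay closer to the injured arrays than basal arrays 3 and 4 did for many of the genes that rose. Both exceeded basal arrays 3 and 4 for 6 of the 11 higher members, namely Efnb2, Epha2, Nrp1, Nrp2, Plxna1 and Sema4d, or 54.5%, where the share over all genes called higher was 40.6%. Of these 6, Sema4d was above background on no basal array. Basal arrays 1 and 2 were both below basal arrays 3 and 4 for 7 of the 16 lower members, or 43.8%, against 30.1% of all genes called lower. With basal arrays 1 and 2 left out, 25 of the 27 calls were kept. The differences of Nrp1 (3.28), Nrp2 (3.31), Epha2 (3.28) and Efnb2 (3.08) were larger. This had to follow, since their 2 highest basal values were left out. With injured arrays 2, 3 and 4, the arrays of highest Xist signal, left out, the remaining injured array was assumed to vary like the others. All 27 called members kept their direction, and Ephb1, Plxna1 and Plxna2 kept their call.

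Coreceptors and neighbouring ligands, a list of 39 genes such as adhesion molecules, heparan sulfate proteoglycans and growth factor receptors that take part in guidance signalling, were called in both directions at shares near those over all genes. Of the 30 tested, 9 were higher and 8 lower, or 30% and 26.7% against 35.4% and 24.7% of all genes, with a median difference of -0.13 against 0.17 over all genes. Nrcam, an adhesion molecule that binds neuropilins with semaphorins, read 0.39, -2.09, -5.14 and -5.12 on basal arrays and 2.23, 2.31, 1.76 and 1.51 on injured arrays, a rise of 4.94 ± 1.14 (adjusted p = 0.00532). Only basal arrays 1 and 2 were above background, and all injured arrays were above them. Met, the receptor of hepatocyte growth factor that can associate with class B plexins, rose by 2.47 ± 0.29 (adjusted p = 1.9e-04), and the proteoglycan Gpc1 by 2.27 ± 0.27 (adjusted p = 1.8e-04). Plxdc1 rose by 1.53 ± 0.20 (adjusted p = 2.9e-04), while its relative Plxdc2 fell by 3.06 ± 0.26 (adjusted p = 4.1e-05). Itga1, the integrin subunit that binds Sema7a, was above background on every basal array and no injured array, and is at least 4.47-fold lower (adjusted p = 1.6e-04).

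Signal transducers of guidance receptors, a list of 63 GTPase regulators, kinases and actin-binding proteins, had 23 higher and 13 lower among 53 tested, or 43.4% and 24.5% against 35.4% and 24.7% of all genes, with a median difference of 0.31. Chn1, a Rac GTPase-activating protein that acts below Eph receptors, read 0.05, -1.24, -1.26 and -0.54 on basal arrays and 2.53, 2.93, 2.71 and 2.31 on injured arrays. It rose by 3.37 ± 0.30 without overlap (adjusted p = 5.1e-05). Srgap3, a Slit-Robo GTPase-activating protein, rose by 3.11 ± 0.83 (adjusted p = 0.0107), and Ablim1, which binds actin, by 2.91 ± 0.78 (adjusted p = 0.0109). The kinase Pak1, an effector of Rac, rose by 2.49 ± 0.37 (adjusted p = 5.8e-04). Mical1, the oxidase that disassembles actin below class A plexins, read 1.27, 1.54, 1.67 and 1.39 on basal arrays and -0.14, -0.43, -0.28 and 0.11 on injured arrays, a fall of 1.65 ± 0.16 (adjusted p = 6.5e-05). Farp2, an exchange factor below Plxna1, was not above background on the injured arrays and is at least 2.64-fold lower (adjusted p = 3.1e-04). Plxna1 thus rose while Mical1 and Farp2 fell, on the same arrays. Their relatives on the list were called in both directions. Mical2 differed by 2.17 ± 0.39 (adjusted p = 0.00145), Farp1 by 0.95 ± 0.19 (adjusted p = 0.00249) and Mical3 by -1.07 ± 0.18 (adjusted p = 0.0011).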

How the data were processed

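RNA of 8 satellite cell samples was labelled with Cy3 and put on 1 Agilent array each. The deposited scanner files hold spot intensity, made by the authors with Agilent Feature Extraction (version 10.7.3.1, per the file headers), which subtracted background and detrended each array without normalization between arrays. The normalized values that the authors deposited as a table are on a log2 scale, read from the values, and served as an alternative only. The submitters' processing notes name limma without its version or steps. Over probes above background on all arrays, each deposited column followed its own array's scanner values with a Spearman rho of 0.562 (basal 4) to 0.90 (basal 1).

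The log2 processed signal minus each array's 75th percentile was analysed in R 4.3.3 with data.table (version 1.17.8). The 1119 spots marked as uneven or outlying were left out, and spots of a probe were averaged. The 55681 probes include 26241 without a gene name, and the rest name 21912 genes. The brightest probe on average stood for a gene. Of these genes, 13728 were tested because that probe exceeded background on 3 or more arrays in either group. The comparison used limma 3.58.1 (a linear model for each gene with 6 residual degrees of freedom, variances moderated with 2.55 prior degrees of freedom, two-sided, Benjamini-Hochberg adjustment over all genes tested, threshold 0.05). A value was missing for 9 genes. A gene not above background on any array of a group has only a bound there. The bound is the bright group's mean over the mean of each dim array's lowest signal well above background, or the probe's own signal where that was higher. In a simulation with the real arrays' means and spread over 13719 genes, the test recovered 47% of 100 genes changed by 1 and 79% of 100 changed by 2 on the log2 scale, with 11 false calls. No other genes were changed there, and both groups had the same spread. In the real comparison 60.1% of genes were called, so these shares do not carry over to it.

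The members and the gene lists were chosen with earlier results of these data known. Array values are given for called members with a fitted difference of 1 or more in size and for those whose groups do not overlap. From each of the 2 lists of related genes, called genes are named by size of difference, up to 4 on the side with more calls and up to 2 on the opposite side. Relatives of Mical1 and Farp2 are named as well, chosen after their values were seen. Alternatives were other background corrections, normalizations, filters and probe rules, limma's trend and robust options, a replicate block, and fits without single arrays or sets of arrays. A block for slide was planned and not run, since each slide holds 1 group. Promoters are those of RefSeq on GRCm38.p6, and probes are placed on mm9 as the scanner files give them.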

Additional observations from a re-analysis of the deposited data

Results flagged for a closer look

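In 5 of 86 groups of 4 arrays, 2 for each tested member, a single array stood apart by a gap to its nearest neighbour that exceeded Dixon's 95% critical value as a share of the group's range. Chance flags about 1 in 20 such groups. For Plxnb3 the share was 0.89, as injured array 4 read -1.07 against -1.48 to -1.44 on the other injured arrays. For Epha1 it was 0.866, with injured array 4 at 1.32 against 0.73 to 0.81. Ephb1 had a share of 0.863, since injured array 2 read -4.95 against -1.90 to -1.42. For Ntn4 the share was 0.861, with basal array 1 at -2.03 against -1.25 to -1.13. Efna2 had a share of 0.83, with basal array 3 at -0.63 against -0.31 to -0.24.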

How the results depend on the processing

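Over the 18 settings that keep the scanner signals and more than 1 injured array, 21 of the 27 called members kept call and direction in each setting that could test them, and Ntn4, Robo3, Robo4, Nrp1, Ephb3 and Epha5 lost the call in at least 1. This concerns calls, not sizes: normexp correction with the added offset made 16 of the 27 differences smaller by more than 1.5 times. The authors' deposited values are outside that count. With them, 25 of the 27 called members kept their direction, and only 12 kept the call. Among those not called there by limma were Plxna2 at -0.21 (adjusted p = 0.79) and Ephb1 at -0.66 (adjusted p = 0.339). Slit3 at -0.43 (adjusted p = 0.33), Sema3g at -0.63 (adjusted p = 0.235) and Epha2 at 1.04 (adjusted p = 0.129) were not called either. Leaving out 1 array gave 9 to 11 members called higher and 14 to 16 called lower. In all genes it gave 4229 to 4947 higher and 2998 to 3532 lower. With genes above background on all 8 arrays, 5 members were higher and 10 lower, since fewer genes were tested. With 1 injured array left, 1 member was higher and 2 lower, as were 767 and 1001 of all genes, 3 and 2 coreceptors, and 4 and 4 transducers. Of the authors' deposited values, 4 members and 765 of all genes were lower, 5 coreceptors were higher and 5 lower, and 13 transducers were higher and 2 lower. The cause was not tested. That table moved the median of all genes by 0.30 and the share of calls that were higher from 58.8% to 81.1%. Normexp with quantile normalization moved the median by -0.10.

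Deviations of same-numbered arrays correlated at -0.0039 to 0.093, and the numbers were not used to pair the samples in the main fit. Low correlation cannot exclude that same-numbered samples share an animal or a batch. With the replicate block, 11 members were called higher and 14 lower, as Ntn4, Robo3 and Robo4 were lost and Sema4g gained.

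Differences with the opposite sign were found in the deposited table for Efna2 (-0.21), Efna5 (1.18), Epha1 (0.50), Epha5 (0.048), Ephb2 (0.43), Ntn1 (0.64), Plxnb3 (-0.51), Sema3f (0.46) and Sema4c (0.11), and for the other Ephb6 probe (0.073). The remaining reversals concern uncalled members with differences near 0. Quantile normalization gave 0.055 for Efna3, -0.11 for Plxnb2 and 0.066 for Sema4c, and with normexp 0.0033, -0.027 and 0.082. Normexp with the 75th percentile gave -0.018 for Efnb1, and median scaling -0.0027 for Plxnb2. Leaving out arrays gave 0.12 (basal 4) and 0.010 (injured 2) for Efna3, -0.18 (basal 4) and -0.015 (injured 4) for Efnb1, -0.054 (basal 3) for Plxnb1 and -0.28 (basal 4) to 0.017 (basal 1) for Sema3f. Without basal 1 and 2 Sema3f was 0.14. With 1 injured array left, Efna3 was 0.0088, Efnb1 -0.33 and Slit2 0.29.

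Depth of signal limits the dim members: 26 could not be tested, and for 4 called members 1 group gives only a bound. All values rest on 4 arrays per group.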
